A study of Homo sapiens with 54 samples.

Results

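The genes described here are 36 human genes of sterol and fatty acid synthesis known as targets or controllers of the sterol regulatory element binding proteins (SREBPs). They were taken by symbol from a table of 50037 genes measured by RNA sequencing in 54 libraries. For this description they were put in 3 branches. Sterol synthesis holds 18 genes, from ACAT2, which joins acetyl-CoA units, to DHCR7, which catalyses the last step of the pathway. Transport and control holds 6 genes (STARD4, TMEM97, INSIG1, SCAP, SREBF1 and SREBF2). Fatty acid synthesis holds 12 genes, from ACLY, which makes cytosolic acetyl-CoA, to the glycerolipid enzymes GPAM and LPIN1.

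SREBPs are transcription factors made as precursors in the membrane of the endoplasmic reticulum. SCAP escorts them to the Golgi when membrane sterol is low, proteases there release the active factor, and INSIG1 and INSIG2 hold SCAP back when sterol is high. SREBF2 encodes the form best known for driving sterol genes, and SREBF1 encodes forms best known for driving fatty acid genes. The kinase complex mTORC1 is known to promote SREBP activity, and liver cells are a main site of both pathways.

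The cells were HCT116, a human colon cancer line, and HepG2, a human hepatocellular carcinoma line, both grown in medium with serum. Each line was exposed to Torin1, an inhibitor of the kinase mTOR, at 1 µM, to tumour necrosis factor alpha (TNF-α, written TNF here) at 100 ng/mL, to interleukin 6 (IL-6) at 50 ng/mL, or to interleukin 10 (IL-10) at 50 ng/mL, each for 6 h or 3 h. The control, labelled NC, received complete medium in the same volume. No group is labelled as a solvent control for Torin1. The inhibitor and any solvent therefore cannot be told apart in comparisons with NC or IL-10. Each of the 18 groups had 3 libraries, called biological replicates in the study's design text. NC carries no time in the labels, so in every comparison with NC the treatment and the hours of handling cannot be told apart, and all comparisons with NC in a line share the same NC libraries. For that reason the other treatments were also compared with IL-10 at the same hour. These are 2 established lines, and a difference between them is a difference between 2 lines, not between colon and liver.

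Sequence upstream of the transcription start was taken from RefSeq (GRCh38.p14) to show what the members' promoters hold. A promoter of 300 bases, 250 before the start and 50 after it, was found for 32 of the 36 members, and none for ACAT2, FDFT1, SQLE and FASN. A sterol regulatory element of the form TCACNCCAC (N is any base, either strand) stood in 2 of 32 members' promoters (6.25%), those of SREBF2 and MID1IP1, against 1.13% of 35116 promoters of the same length. The NF-Y motif CCAAT, on either strand, stood in 21 of 32 (65.6%) against 34.6% of all promoters. By branch, it was found in 12 of 15 sterol synthesis promoters (80.0%), 4 of 6 of transport and control (66.7%) and 5 of 11 of fatty acid synthesis (45.5%). The SP1 motif GGGCGG stood in 30 of 32 (93.8%) against 45.0%, and the E-box CACGTG in 4 of 32 (12.5%) against 7.26%. The 35116 promoters were not chosen by gene type or by expression in these cells, so they are not matched to the members. Such matches are descriptions of letters, and no factor binding was measured. Printed next are the 250 bases before the start, 5′ to 3′ on the gene's strand, for the 2 promoters with the sterol regulatory element, which is in capitals: SREBF2 at chr22:41832855-41833104 (+) and MID1IP1 at chrX:38801209-38801458 (+). The same stretch follows for HMGCS1 at chr5:43313413-43313662 (-) and MSMO1 at chr4:165327419-165327668 (+), chosen after their values were seen because they fell most, with CCAAT (or ATTGG, its form on the other strand) in capitals.
SREBF2: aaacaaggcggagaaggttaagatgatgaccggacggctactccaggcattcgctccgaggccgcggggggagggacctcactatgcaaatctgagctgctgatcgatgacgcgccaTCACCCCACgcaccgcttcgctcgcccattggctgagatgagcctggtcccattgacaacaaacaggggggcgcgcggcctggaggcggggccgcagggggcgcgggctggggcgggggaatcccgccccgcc
MID1IP1: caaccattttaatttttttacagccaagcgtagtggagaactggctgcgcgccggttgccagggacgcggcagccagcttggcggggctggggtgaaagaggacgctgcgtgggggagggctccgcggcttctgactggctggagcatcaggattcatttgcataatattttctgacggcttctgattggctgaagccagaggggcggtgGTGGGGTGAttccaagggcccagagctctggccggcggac
HMGCS1: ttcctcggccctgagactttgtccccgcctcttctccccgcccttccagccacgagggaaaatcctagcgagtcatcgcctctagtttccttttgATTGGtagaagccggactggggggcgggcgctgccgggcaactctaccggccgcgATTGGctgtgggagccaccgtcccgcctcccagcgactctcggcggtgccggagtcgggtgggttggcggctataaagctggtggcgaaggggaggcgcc
MSMO1: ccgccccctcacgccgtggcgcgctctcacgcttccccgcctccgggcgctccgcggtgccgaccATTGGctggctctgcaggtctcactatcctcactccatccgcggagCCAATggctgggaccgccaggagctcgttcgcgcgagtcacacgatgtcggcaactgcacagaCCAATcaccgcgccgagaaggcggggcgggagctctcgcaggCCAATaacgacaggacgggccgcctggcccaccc
In SREBF2 the element lay 133 bases before the start, and in MID1IP1 it lay 40 bases before it on the opposite strand. HMGCS1 held 2 CCAAT motifs in this stretch and MSMO1 held 4. Of the other sterol synthesis promoters, those of IDI1, PMVK and CYP51A1 held no CCAAT, and those of MVK and NSDHL held 5 each. Whether the motif goes with the changes in RNA was not tested.

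Depth, recovered from the steps between low values, was 38.5 to 55.7 M reads per HCT116 library and 46.3 to 93.7 M reads per HepG2 library (M, 1e6). Levels are in FPKM, fragments scaled by transcript length and a size factor per library. The size factors in the deposited values, the main scaling here, matched median-of-ratios factors over all 54 libraries (ratios of 0.9981 to 1.0017). They are not total reads, which are used in total-read scaling. Hepatocyte markers summed to 13800 to 17200 FPKM in HepG2 libraries, with 10 of 11 markers above 1 FPKM. Of 10 colon epithelium markers, 5 were above 1 FPKM in HCT116 and 5 in HepG2, with sums of 1290 to 1730 FPKM in HCT116 libraries and 835 to 1180 FPKM in HepG2 libraries, so this count does not set the lines apart. KRT20, CDX1, VIL1, CDH17 and LGR5 were at or near 0 in HCT116. The third HepG2 library of IL-6 at 3 h stood apart from its replicates, with a chi-square per degree of freedom of 42.5 and 34 against the other two, where no other pair of replicates was above 26.7. As a check of the treatments, SOCS3, a target of IL-6 signalling, averaged 8.61 ± 0.39 FPKM with IL-6 at 6 h in HepG2 against 0.0836 ± 0.0363 in NC (SD, n = 3 each). NFKBIA, a target of TNF signalling, averaged 168 ± 8.4 FPKM with TNF at 3 h in HCT116 against 9.54 ± 0.32 in NC. In HCT116, SOCS3 averaged 3.91 ± 0.18 FPKM with IL-6 at 6 h and 2.98 ± 0.41 FPKM in NC.

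Each line was fitted with limma on log2(FPKM + 1), and a gene was called when its p, adjusted by the Benjamini-Hochberg method over all genes tested, was under 0.05. Log2 differences are on that scale, which understates the change of genes near 1 FPKM. The percentages beside the counts are the shares of all genes tested that were called in the same direction. A branch count near that share does not set the branch apart from other genes. All 36 members passed the filter of 1 FPKM in 3 libraries in HCT116, and 34 did in HepG2. INSIG1 lay between 9.53 and 23.2 FPKM in HCT116 libraries, whereas it was listed at 0 in 18 of the 27 HepG2 libraries and was at most 0.0478 FPKM there, with 25 reads in all. ME1, which makes NADPH for fatty acid synthesis, lay between 24.83 and 35.02 FPKM in HCT116 libraries, whereas it was listed at 0 in 15 of 27 HepG2 libraries and was at most 0.0660 FPKM there. These values are those of each gene's own row, and whether reads of INSIG1 or ME1 were listed under another name was not tested. In a bulk library, fewer cells that transcribe a gene and less RNA per cell cannot be told apart.

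In the untreated state most sterol genes had lower relative RNA levels in HCT116 than in HepG2. Of the 18 sterol synthesis genes, 16 were called lower in HCT116 NC than in HepG2 NC (43.3% of all genes tested were) and 1, the mevalonate pathway kinase PMVK, was called higher (42.2%). Their median log2 difference was -1.12, against -0.01 over all genes tested, a median that the main scaling itself largely holds near 0. HMGCS1, which makes the precursor of mevalonate, was at 29.8, 28.2 and 29.5 FPKM in HCT116 NC and at 103.5, 92.9 and 102 FPKM in HepG2 NC. ACAT2 showed the largest difference in this branch, with 24.1, 24.5 and 22.3 FPKM in HCT116 NC against 146.9, 144 and 148.5 FPKM in HepG2 NC (log2 -2.58, SE 0.05, adjusted p = 3.84e-37 by limma). The 2 lines did not overlap for either gene.

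INSIG1 and ME1 passed the filter in this comparison through HCT116 libraries alone, so they had to differ and are left out of the counts that follow. In transport and control, SREBF1 was called higher in HCT116 NC, and TMEM97, which binds the sterol transporter NPC1, STARD4, a cytosolic sterol carrier, and SCAP were called lower. SREBF1 was at 11.9, 11.1 and 11.8 FPKM in HCT116 NC and at 7.07, 7.14 and 7.57 FPKM in HepG2 NC (log2 0.61, SE 0.05, adjusted p = 1.98e-14 by limma). Of the 11 fatty acid genes other than ME1, 8 were called lower in HCT116 NC, with a median log2 difference of -0.86. The fatty acid desaturases FADS2 and FADS1 differed by -3.02 and -2.06, and SCD, which makes monounsaturated fatty acids, by -1.13. SCD was the most abundant member in both lines, at 226, 247 and 236 FPKM in HCT116 NC and 520, 507 and 529 FPKM in HepG2 NC. With library sizes set by total reads the median of all genes moved by 0.18 in this comparison: ACLY, at -0.19 in the main scaling, was then at 0.04 and not called, and DHCR7 and ELOVL6 lost their calls too.

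Torin1 lowered nearly the whole sterol branch in HepG2 by 6 h. Against NC, 17 of 18 sterol synthesis genes fell (33.8% of all genes tested were called lower) and no sterol synthesis gene was called higher (26.1%). Their median log2 change was -0.49, against -0.03 over all genes. MSMO1, a demethylase of methylated sterols, was at 38.7, 39.5 and 40.0 FPKM with Torin1 at 6 h, at 80.7, 75.03 and 82.6 FPKM with Torin1 at 3 h, and at 109.5, 101 and 111 FPKM in NC. HMGCS1 was at 37.1, 37.5 and 37.9 FPKM at 6 h, 82.1, 77.0 and 83.7 FPKM at 3 h, and 103.5, 92.9 and 102 FPKM in NC. For both genes every Torin1 library lay under every NC library, and every 6 h library under every 3 h library. The log2 change at 6 h was -1.42 for MSMO1 (SE 0.06, adjusted p = 7.79e-14) and -1.38 for HMGCS1 (SE 0.07, adjusted p = 5.94e-13), by limma.

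The next largest falls were in the mevalonate pathway. MVK, which phosphorylates mevalonate, was at 3.80, 3.30 and 3.39 FPKM with Torin1 at 6 h against 8.24, 7.29 and 8.55 FPKM in NC (log2 -1.004, SE 0.06, adjusted p = 2.2e-11 by limma). IDI1, the isopentenyl diphosphate isomerase, was at 32.9, 33.8 and 33.6 FPKM against 69.4, 61.75 and 68.1 FPKM in NC (log2 -0.97, SE 0.06, adjusted p = 2.08e-11 by limma). The groups did not overlap for either gene. The other 13 called genes lay between -0.76 for HSD17B7, a sterol ketone reductase, and -0.24 for CYP51A1, the lanosterol demethylase, and included SQLE (-0.56), the squalene epoxidase, DHCR7 (-0.62) and ACAT2 (-0.60). The gene left uncalled, NSDHL, was at 0.795, 1.32 and 0.635 FPKM with Torin1 at 6 h against 0.566, 0.429 and 0.570 FPKM in NC. Across HepG2 libraries of all groups Torin1 at 6 h had the lowest mean for 17 of the 18 sterol synthesis genes. LSS, which closes the sterol ring, lost its call when the third NC library was left out.

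**Figure D1:**
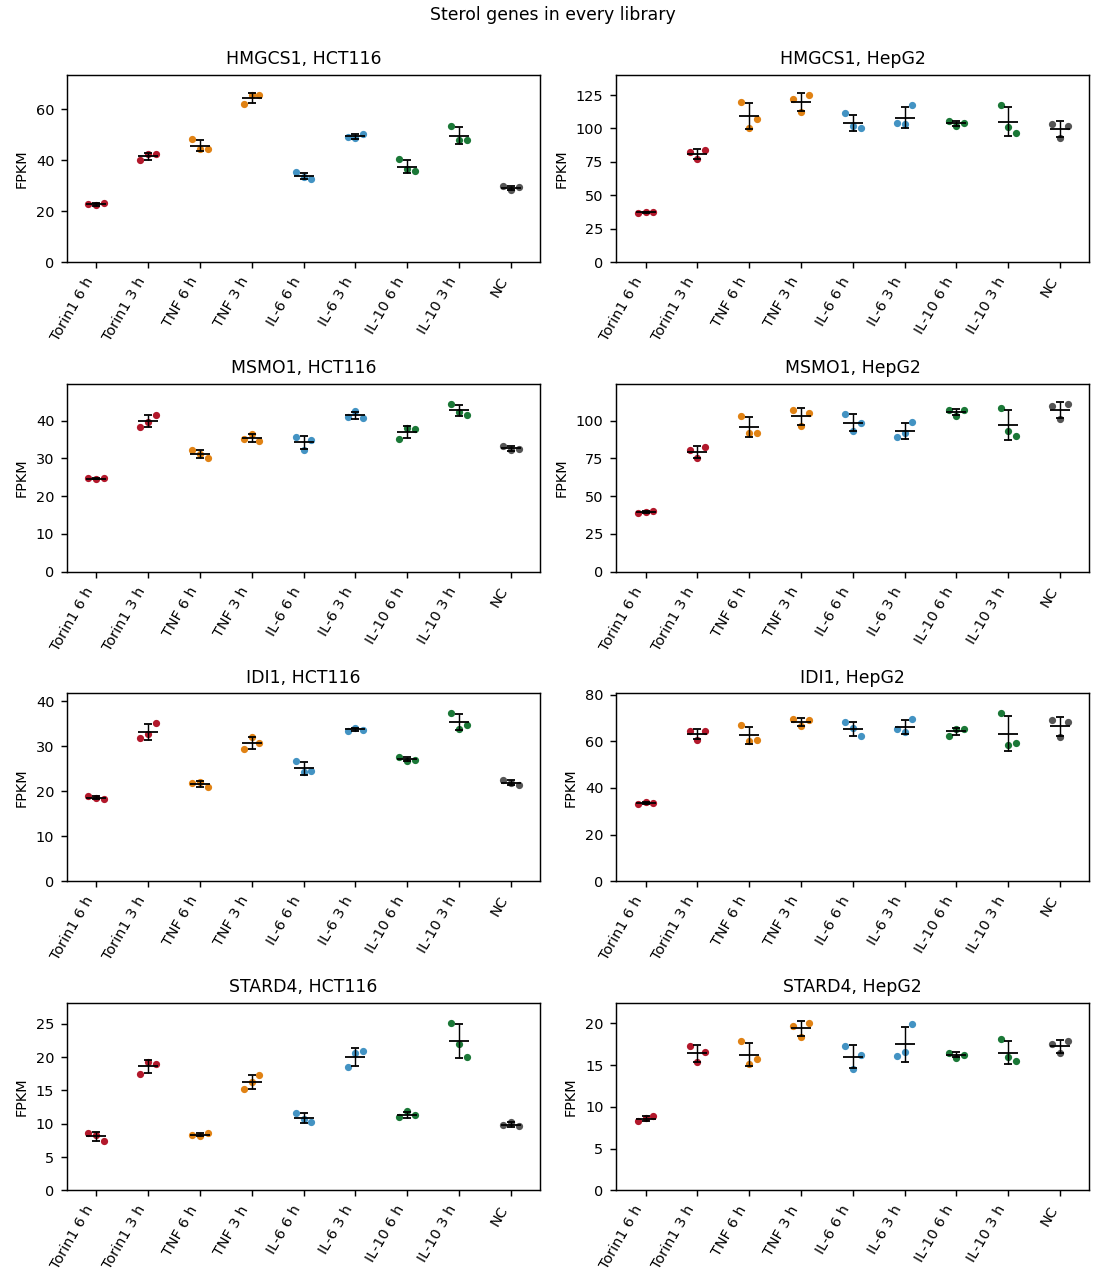
FPKM of HMGCS1, MSMO1, IDI1 and STARD4 in every library of each group, HCT116 on the left and HepG2 on the right (points, libraries; bars, mean ± SD of 3). In HepG2, MSMO1 lies between 38.7 and 40.0 FPKM with Torin1 at 6 h, under all other groups, while in HCT116 HMGCS1 is highest with TNF at 3 h, at 62.1 to 65.8 FPKM.

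STARD4 fell with the sterol enzymes in HepG2, to 8.275, 8.64 and 8.90 FPKM with Torin1 at 6 h, against 17.3, 15.3 and 16.6 FPKM at 3 h and 17.49, 16.4 and 17.9 FPKM in NC (log2 -0.93 at 6 h against NC, SE 0.08, adjusted p = 1.01e-09 by limma). TMEM97 also fell (-0.27, adjusted p = 8.55e-07 by limma). SCAP was called higher at 0.12 (adjusted p = 0.0209 by limma), a call that was lost under total-read scaling and without the first NC, the first Torin1 or the third Torin1 library. SREBF1 (-0.06) and SREBF2 (0.04) were not called at 6 h.

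The fatty acid branch moved less evenly with Torin1 at 6 h in HepG2. Of the 11 genes tested 7 fell and 2 rose, where 33.8% of all genes were called lower and 26.1% higher, and their median log2 change was -0.27. The 11 include ACACA (0.01, not called), which passed the filter with 3 libraries, 2 of them Torin1. FASN, the fatty acid synthase, was at 43.7, 40.7 and 43.6 FPKM with Torin1 at 6 h against 61.5, 62.1 and 63.0 FPKM in NC (log2 -0.53, SE 0.07, adjusted p = 1.49e-06 by limma). SCD was at 390.3, 422.5 and 414 FPKM against 520, 507 and 529 FPKM in NC (log2 -0.34, SE 0.04, adjusted p = 8.86e-08 by limma). Neither gene had overlapping groups. ACSS2, which makes acetyl-CoA from acetate (-0.36), FADS2 (-0.35), ACLY (-0.29), the elongase ELOVL6 (-0.27) and FADS1 (-0.19) fell too. The members that rose were MID1IP1, which helps acetyl-CoA carboxylase to polymerise (0.28, adjusted p = 1.91e-06 by limma), and LPIN1, a phosphatidate phosphatase (0.20). GPAM, the mitochondrial glycerol-3-phosphate acyltransferase, was at 53.5, 55.3 and 54.03 FPKM against 57.35, 55.8 and 58.2 FPKM in NC and was not called.

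At 3 h the falls in HepG2 were fewer. Against NC, 7 sterol synthesis genes were called lower (26.1% of all genes), with a median of -0.10, and the largest were MSMO1 (-0.43, SE 0.06, adjusted p = 1.18e-05), HMGCS1 (-0.29, SE 0.07, adjusted p = 0.00169) and MVK (-0.25), by limma. SREBF1 (0.20) and SREBF2 (0.09) rose, as did LPIN1 (0.33) and MID1IP1 (0.22), while ELOVL6 fell by 0.19 (19.4% of all genes were called higher). Under total-read scaling 3 members were called higher and 13 lower, against 4 and 8 in the main scaling, and PMVK, ACAT2 and SREBF2 each lost their call without at least 1 library.

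Direct comparison of the 6 h with the 3 h Torin1 libraries, which does not use NC, gave 16 lower sterol synthesis genes of 18 (19.3% of all genes), with a median of -0.45. HMGCS1 was lower by -1.09 and MSMO1 by -0.99. STARD4 was lower by -0.86, and 7 of 11 fatty acid genes were called lower, led by FASN at -0.38. SCAP was the member called higher (17.0% of all genes), and it lost that call when any 1 of 5 libraries was left out.

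The Torin1 libraries of HepG2 were also set against IL-10 at the same hour, which does not use NC. At 6 h, 17 sterol synthesis genes were called lower (30.3% of all genes), with a median of -0.56 against -0.01 over all genes. HMGCS1 was at 37.1, 37.5 and 37.9 FPKM with Torin1 against 105.5, 102 and 104 FPKM with IL-10 (log2 -1.45, SE 0.07, adjusted p = 2.39e-13 by limma), without overlap. MSMO1 changed by -1.40, MVK by -0.96 and STARD4 by -0.84. Of the fatty acid genes 8 were called lower, and MID1IP1 (0.20) and LPIN1 (0.28) higher (28.7%). ACACA, the acetyl-CoA carboxylase, was called higher too, but in HepG2 it passed the filter with 3 libraries, 2 of them Torin1 and 1 of them NC, so its calls there are not counted as results. Total-read scaling gave 3 higher and 27 lower members against 4 and 27, ACACA included. At 3 h, 8 sterol synthesis genes were called lower (24.0%), led by FDPS (-0.39), which makes farnesyl diphosphate, and HMGCS1 (-0.37). FDFT1, squalene synthase, was among them at -0.31, and with its second row added it was at -0.03 and not called. Among fatty acid genes at 3 h, LPIN1 (0.47), GPAM (0.19) and MID1IP1 (0.15) were called higher (21.5%). No transport and control gene was called at 3 h by limma, none had an unadjusted p under 0.05 and none was called by voom (0 in each case).

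In HCT116, Torin1 gave a different course, with higher levels at 3 h and a smaller fall at 6 h. At 3 h, 14 of 18 sterol synthesis genes rose against NC (25.1% of all genes tested were called higher), with a median of 0.23 against -0.00455 over all genes. IDI1 was at 31.7, 32.7 and 35.1 FPKM with Torin1 at 3 h against 22.55, 21.7 and 21.4 FPKM in NC (log2 0.58, SE 0.04, adjusted p = 3.29e-10 by limma). HMGCS1 was at 40.1, 42.4 and 42.4 FPKM against 29.8, 28.2 and 29.5 FPKM in NC (log2 0.50, SE 0.05, adjusted p = 1.38e-08 by limma). SQLE rose by 0.46 and CYP51A1 by 0.33. The Torin1 libraries lay above every NC library for IDI1 and HMGCS1.

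STARD4, INSIG1 and SREBF1 rose more than IDI1 did. STARD4 was at 17.51, 19.2 and 18.98 FPKM with Torin1 at 3 h against 9.74, 10.3 and 9.64 FPKM in NC (log2 0.85, SE 0.07, adjusted p = 1.81e-09 by limma). INSIG1 was at 20.7, 23.2 and 22.9 FPKM against 12.65, 11.9 and 13.4 FPKM in NC (log2 0.77, SE 0.07, adjusted p = 4.14e-09 by limma). Neither gene overlapped between the groups. SREBF1 rose by 0.71 and SREBF2 by 0.35, while TMEM97 (-0.02) and SCAP (0.04) were not called. Of the 12 fatty acid genes, 9 rose and GPAM fell by 0.59 (28.6% of all genes were called lower). LPIN1 (0.54), FADS1 (0.52) and SCD (0.44) rose most. Under total-read scaling 23 members were called higher and 2 lower, against 27 and 1, where TM7SF2, ACLY, MVK and SC5D lost their calls.

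By 6 h, 6 sterol synthesis genes were lower in HCT116 with Torin1 than in NC (31.5% of all genes were called lower) and no member of that branch was called higher (25.8%). MSMO1 was at 24.75, 24.5 and 24.7 FPKM against 33.3, 32.2 and 32.4 FPKM in NC (log2 -0.39, SE 0.04, adjusted p = 2.11e-08 by limma). HMGCS1 was at 22.7, 22.3 and 23.25 FPKM against 29.8, 28.2 and 29.5 FPKM in NC (log2 -0.34, SE 0.05, adjusted p = 2.37e-06 by limma). DHCR7 fell by 0.38, SC5D, the lathosterol desaturase, by 0.23, IDI1 by 0.23 and ACAT2 by 0.15. The groups did not overlap for MSMO1 and HMGCS1. ACAT2 lost its call without the second Torin1 library. The median of the sterol branch was -0.10 and that of all genes was -0.02, and the share of the branch called lower was close to the share of all genes.

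STARD4 (-0.26), INSIG1 (-0.25) and TMEM97 (-0.12) also fell at 6 h, while SREBF1 (0.45) and SREBF2 (0.29) rose. In the fatty acid branch GPAM fell by 0.51 and ME1 by 0.15, and FADS1 (0.27) and FADS2 (0.26) rose. FASN (-0.10), SCD (0.05) and LPIN1 (0.03) were not called.

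The fall between 3 h and 6 h of Torin1 in HCT116 took in most members. Lower levels at 6 h than at 3 h were called for 14 of 18 sterol synthesis genes (16.3% of all genes), with a median of -0.35, and for 8 of 12 fatty acid genes, with a median of -0.28. STARD4 was at 8.59, 8.37 and 7.36 FPKM at 6 h against 17.51, 19.2 and 18.98 FPKM at 3 h (log2 -1.11, SE 0.07, adjusted p = 2.48e-10 by limma). INSIG1 was lower by -1.02, HMGCS1 by -0.84 and IDI1 by -0.80. MID1IP1 was the member called higher, at 0.12 (14.1% of all genes), and its call was lost when any 1 of 4 libraries was left out. Under total-read scaling 1 member was higher and 24 were lower, against 1 and 26. A lower sterol level at 6 h was not particular to Torin1 in HCT116, though the cytokines were not tested between hours. The mean log2(FPKM + 1) of the 17 sterol synthesis genes other than NSDHL went from 4.205 at 3 h to 3.82 at 6 h with Torin1. It went from 4.20 to 3.91 with TNF, from 4.22 to 3.975 with IL-6 and from 4.22 to 3.99 with IL-10.

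Against IL-10 at the same hour, few sterol synthesis genes were higher with Torin1 in HCT116. At 3 h, 1 such gene, SQLE (0.14), was called higher (17.6% of all genes), and HMGCS1 (-0.25), MSMO1 (-0.10) and CYP51A1 (-0.09) were called lower (26.7%). In the fatty acid branch 6 genes were called higher, led by LPIN1 (0.45) and FASN (0.37), and GPAM (-0.37) and ME1 (-0.13) were called lower. SREBF1 was higher by 0.34. Fitted on the compared libraries alone, 10 members were called in place of 16. At 6 h, 7 sterol synthesis genes were called lower with Torin1 than with IL-10 (33.7%), with a median of -0.13: HMGCS1 was at 22.7, 22.3 and 23.25 FPKM with Torin1 against 40.4, 36.6 and 35.6 FPKM with IL-10 (log2 -0.70, SE 0.05, adjusted p = 7.32e-11 by limma). MSMO1 changed by -0.57 and IDI1 by -0.52. SREBF1 (0.51), SREBF2 (0.32) and SCAP (0.10) were called higher with Torin1 at 6 h (23.6%), as were FADS2 (0.30), SCD (0.17), FADS1 (0.16) and LPIN1 (0.14). GPAM gave the largest difference of the fatty acid branch, at 9.30, 9.72 and 9.63 FPKM with Torin1 against 15.4, 13.87 and 13.39 FPKM with IL-10 at 6 h (log2 -0.53, SE 0.04, adjusted p = 7.39e-10 by limma). ME1 (-0.28), ELOVL6 (-0.13), STARD4 (-0.44), INSIG1 (-0.34) and TMEM97 (-0.08) were also called lower, and none of these genes had overlapping groups.

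**Figure D2:**
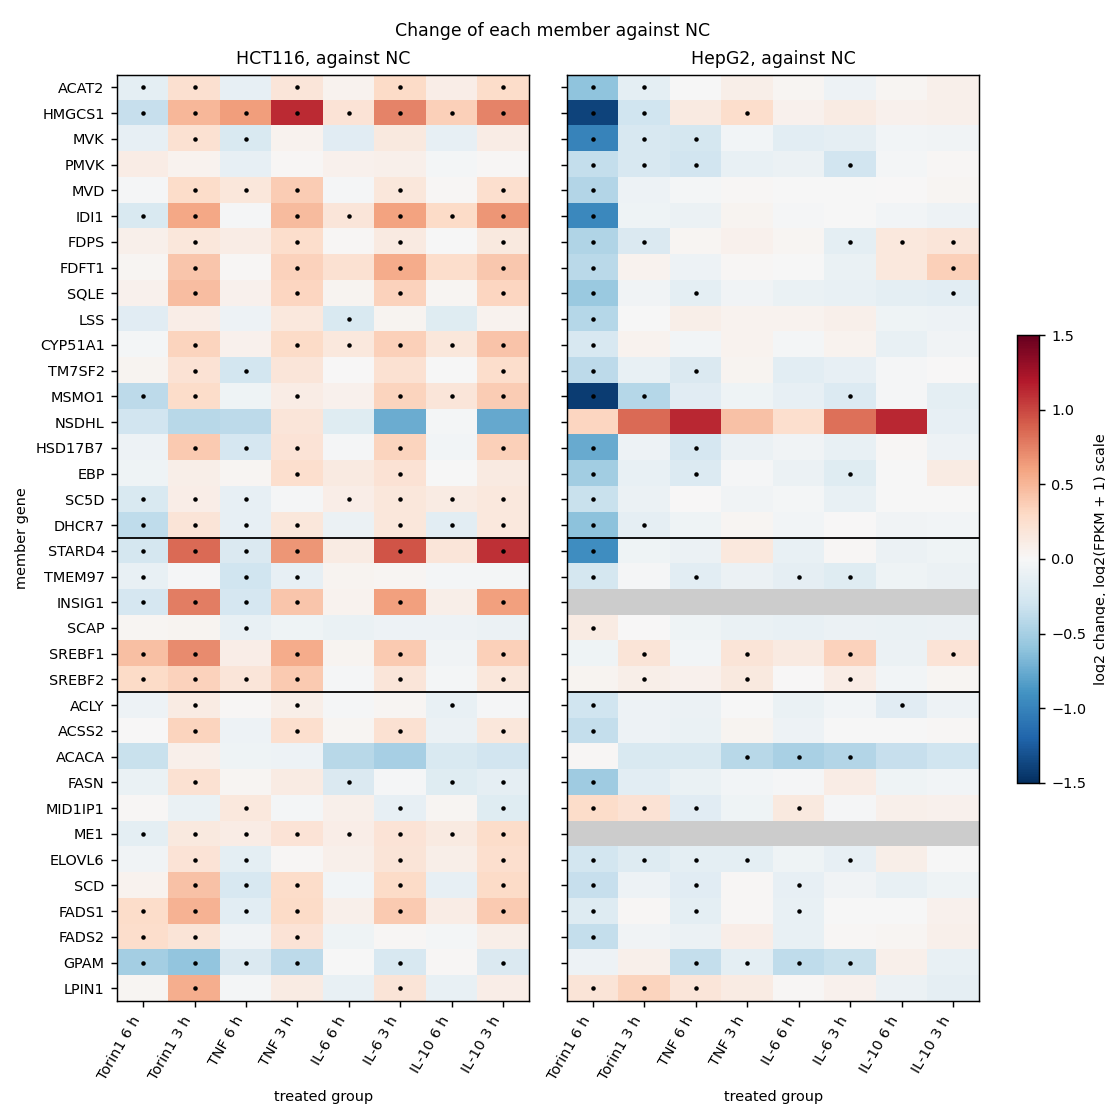
Log2 change against NC of each of the 36 members (rows, with lines between sterol synthesis, transport and control, and fatty acid synthesis) in each treated group (columns), HCT116 on the left and HepG2 on the right; dots mark calls at an adjusted p under 0.05 and grey cells were not tested. The HCT116 columns at 3 h are mostly red in the sterol rows for every treatment, and the HepG2 column of Torin1 at 6 h is blue in 17 of 18 sterol rows.

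The difference between the lines was tested in 1 fit of all 54 libraries, over 9683 genes and 34 members. With Torin1 at 6 h the change against NC was more positive in HCT116 than in HepG2 for 15 of 18 sterol synthesis genes (26.4% of all genes). HMGCS1 changed by -0.34 in HCT116 and -1.38 in HepG2, a difference of 1.04 (SE 0.09, adjusted p = 8.26e-13 by limma). MSMO1 differed by 1.03 and MVK by 0.88. Of the fatty acid genes 7 differed the same way, led by FADS2 (0.62), and GPAM (-0.43) and MID1IP1 (-0.26) differed the other way (23.7%). STARD4 (0.67), SREBF1 (0.52), SREBF2 (0.25) and TMEM97 (0.15) differed toward HCT116.

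At 3 h of Torin1, 15 sterol synthesis genes again differed toward HCT116 (20.4% of all genes), with HMGCS1 at 0.79, MSMO1 at 0.71 and IDI1 at 0.65. For IDI1 the changes behind this were 0.58 in HCT116 and -0.07 in HepG2. STARD4 differed by 0.92, and 8 fatty acid genes differed the same way, while GPAM (-0.66) and MID1IP1 (-0.32) differed the other way (19.5%). FDFT1, LPIN1 and PMVK lost their calls in this difference without at least 1 library. For some genes the difference at 3 h was not particular to Torin1. With IL-10 at 3 h against NC it was 0.67 for HMGCS1, 0.52 for MSMO1, 0.73 for IDI1 and 1.16 for STARD4. Of the 34 members, 15 were called in that difference, against 28 with Torin1 at 3 h.

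**Figure D3:**
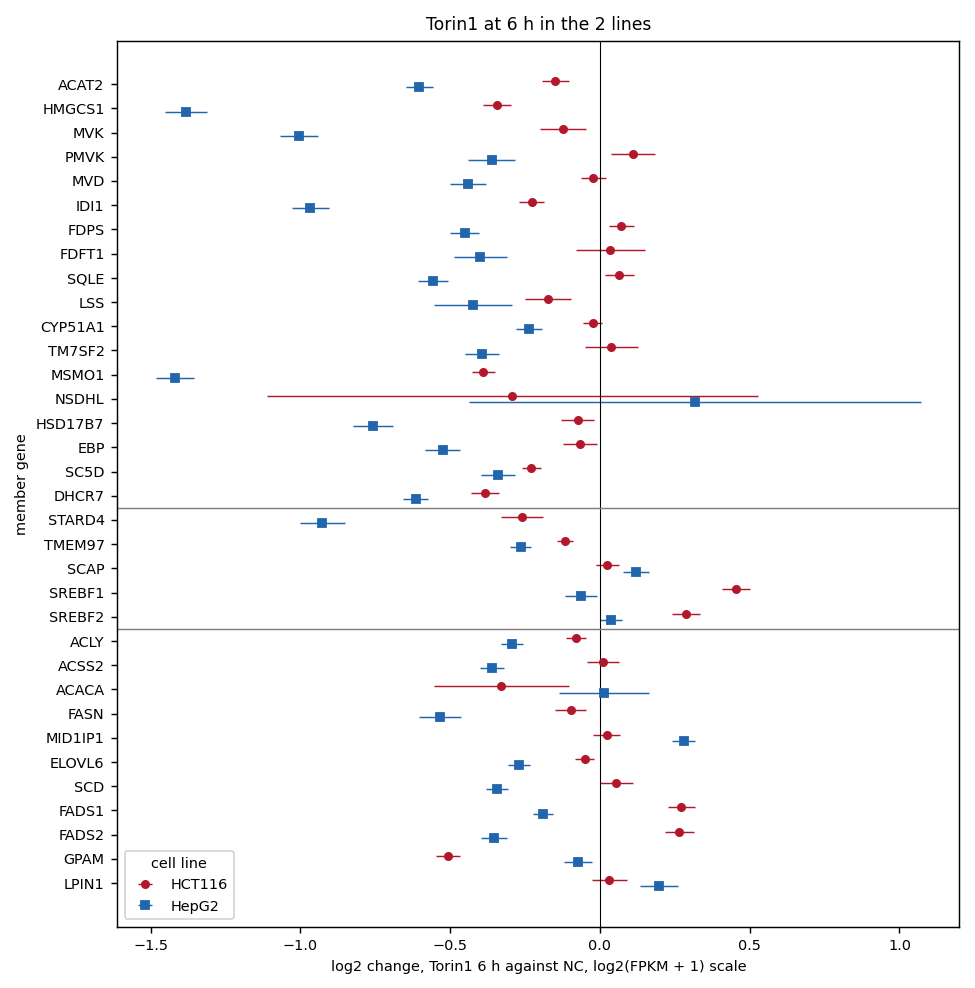
Log2 change with Torin1 at 6 h against NC for the 34 members tested in both lines (HCT116, circles; HepG2, squares; bars, SE). The squares of HMGCS1 and MSMO1 lie at -1.38 and -1.42 and their circles at -0.34 and -0.39, while the circle of GPAM lies at -0.51 and its square at -0.07.

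Most sterol synthesis genes of HCT116 were also called higher with each cytokine at 3 h than in NC. The cytokine and the hours of handling cannot be told apart there. Of 18 sterol synthesis genes, 12 were called higher with TNF (19.2% of all genes), 13 with IL-6 (15.9%) and 13 with IL-10 (21.8%). The medians were 0.19, 0.22 and 0.26. No sterol synthesis gene was called lower in these comparisons. HMGCS1 was at 62.1, 65.8 and 65.5 FPKM with TNF, 49.2, 48.7 and 50.4 FPKM with IL-6, and 53.6, 47.9 and 47.8 FPKM with IL-10, against 29.8, 28.2 and 29.5 FPKM in NC. Every treated library lay above every NC library. The log2 change was 1.118 with TNF (SE 0.05, adjusted p = 3.72e-14), 0.74 with IL-6 (adjusted p = 5.66e-10) and 0.75 with IL-10 (adjusted p = 3.26e-10), by limma. STARD4 rose by 0.67, 0.94 and 1.10 with TNF, IL-6 and IL-10 in turn, and INSIG1 by 0.42, 0.61 and 0.61. These comparisons share the NC libraries and are not independent of each other.

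Fatty acid genes followed in part at 3 h in HCT116. Against NC, 6 of 12 were called higher with TNF, and GPAM was called lower (22.4% of all genes were called lower). With IL-6, 6 were called higher, and GPAM and MID1IP1 lower (15.6%). With IL-10, 5 were called higher, and GPAM, MID1IP1 and FASN lower (16.9%). FADS1 rose by 0.29, 0.40 and 0.40 with TNF, IL-6 and IL-10, and SCD by 0.28, 0.28 and 0.29. TMEM97 was called lower with TNF, at -0.12. Under total-read scaling the members called higher and lower were 19 and 4 with TNF against 22 and 2, 21 and 3 with IL-6 against 23 and 2, and 19 and 5 with IL-10 against 22 and 3. DHCR7 lost its call under that scaling with all 3 cytokines, and MSMO1 and ACLY did with TNF.

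Most of these changes were smaller by 6 h. With TNF at 6 h, HMGCS1 remained higher than NC, at 48.2, 44.4 and 44.5 FPKM against 29.8, 28.2 and 29.5 FPKM (log2 0.63, SE 0.05, adjusted p = 7.78e-10 by limma), and MVD, the mevalonate diphosphate decarboxylase, was higher by 0.17 (16.7% of all genes). In the same comparison 5 sterol synthesis, 4 transport and control and 4 fatty acid genes were called lower (17.1%), among them HSD17B7 (-0.26), TMEM97 (-0.30), INSIG1 (-0.26) and SCD (-0.24). Total-read scaling gave 2 higher and 16 lower members with TNF at 6 h, against 5 and 13, and MVD was among the calls lost. With IL-6 at 6 h, 4 sterol synthesis genes were called higher (11.1%), with HMGCS1 at 0.21, IDI1 at 0.19 and CYP51A1 at 0.15. LSS was called lower (5.45%). With IL-10 at 6 h, 5 were called higher (14.0%), with HMGCS1 at 0.35, IDI1 at 0.29 and MSMO1 at 0.18. DHCR7 was called lower (6.49%).

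At 6 h no transport and control gene was called by limma with IL-6 or IL-10 in HCT116, where 1 and 2 of the 6 had an unadjusted p under 0.05 and voom called 0 in both. FASN was called lower with IL-6 (-0.22) and IL-10 (-0.18) and ME1 higher (0.10 and 0.13). Total-read scaling gave 3 higher and 4 lower members with IL-6, against 5 and 2, and 6 and 4 with IL-10, against 6 and 3. Median-of-ratios scaling gave 3 and 2 with IL-6. LSS, SC5D and ME1 with IL-6, and DHCR7, SC5D, FASN and ACLY with IL-10, lost their calls without at least 1 library.

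TNF and IL-10 differed in HCT116 for some members, HMGCS1 first among those higher with TNF. With TNF against IL-10 at 3 h, HMGCS1 was higher by 0.37 (SE 0.05, adjusted p = 3.87e-06 by limma), and MVD (0.14) and FDPS (0.11) were called higher too (14.3% of all genes). MSMO1 (-0.27), IDI1 (-0.19), SC5D (-0.17), HSD17B7 (-0.15) and CYP51A1 (-0.15) were called lower (22.2%). At 6 h HMGCS1 was at 48.2, 44.4 and 44.5 FPKM with TNF against 40.4, 36.6 and 35.6 FPKM with IL-10, without overlap (log2 0.28, SE 0.05, adjusted p = 7.34e-05 by limma). MVD (0.15) and FDPS (0.11) were again called higher at 6 h (17.7%) and 7 sterol synthesis genes were called lower (24.6%), led by IDI1 (-0.31). STARD4 was lower with TNF than with IL-10 at 3 h (-0.43) and 6 h (-0.40). FASN was higher (0.25 and 0.21), and ELOVL6 (-0.23 and -0.23) and GPAM (-0.17 and -0.24) were lower. Total-read scaling gave 6 higher and 12 lower members at 3 h, against 8 and 10, and FDPS lost its calls under it at both times.

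Between IL-6 and IL-10 in HCT116 no member was called. By limma at 3 h, 0 of 36 members were called, 4 had an unadjusted p under 0.05 and voom called 0, where 0.167% and 0.0702% of all genes were called higher and lower. By limma at 6 h, 0 were called, 7 had an unadjusted p under 0.05 and voom called 0, where 0.0965% and 0.0176% of all genes were called higher and lower. The 2 cytokines cannot be called alike from this, since members' log2 differences ran from -0.21 to 0.15 at 3 h and from -0.19 to 0.15 at 6 h.

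In HepG2, 1 sterol synthesis gene was called with TNF at 3 h, 4 with IL-6 at 3 h and 3 with IL-10 at 3 h, against NC. For TNF and IL-6 the difference between the lines was not tested. HMGCS1 was the sterol synthesis gene called higher with TNF at 3 h (12.8% of all genes). It was at 122, 112.5 and 125 FPKM against 103.5, 92.9 and 102 FPKM in NC (log2 0.27, SE 0.07, adjusted p = 0.00582 by limma). SREBF1 (0.20) and SREBF2 (0.15) rose, and GPAM (-0.15) and ELOVL6 (-0.15) fell (16.9%), of which GPAM lost its call without single libraries. ACACA, which passed the filter through NC and Torin1 libraries, was at 0.708, 0.348 and 0.317 FPKM with TNF at 3 h against 1.24, 0.989 and 0.634 FPKM in NC. With TNF at 6 h, 6 sterol synthesis genes were called lower (16.8%), with MVK at -0.27, PMVK at -0.29 and TM7SF2, a sterol reductase, at -0.215. TMEM97 and 5 fatty acid genes were called lower too, while LPIN1 was called higher (11.9%). Total-read scaling gave 3 higher and 6 lower members at 3 h, against 3 and 3.

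With IL-6 at 3 h in HepG2, 4 of 18 sterol synthesis genes were called lower than in NC, a share close to the 19.5% of all genes. They were PMVK (-0.28), MSMO1 (-0.20), EBP (-0.18) and FDPS (-0.14), and each of these calls was lost without at least 1 library. EBP was at 92.5, 92.05 and 74.9 FPKM against 96.8, 94.9 and 101.5 FPKM in NC, and FDPS at 72.4, 68.8 and 59.4 FPKM against 73.5, 73.65 and 73.8 FPKM in NC. Both were lowest in the third IL-6 library, the one that stood apart. Without it, EBP (-0.08), FDPS (-0.06) and PMVK (-0.19) were not called and MSMO1 (-0.24) was. SREBF1 rose to 9.41, 9.53 and 9.58 FPKM, against 7.07, 7.14 and 7.57 FPKM in NC (log2 0.35, SE 0.05, adjusted p = 2.57e-05 by limma; 14.5% of all genes were called higher), and without that library the change was 0.34. At 6 h no sterol synthesis gene was called by limma, 2 of 18 had an unadjusted p under 0.05 and voom called 0. TMEM97 (-0.14), GPAM (-0.38), SCD (-0.13) and FADS1 (-0.11) were called lower at 6 h (11.8%) and MID1IP1 higher (0.15; 7.59%). ACACA was at 0.228, 0.375 and 0.5585 FPKM with IL-6 at 6 h. Median-of-ratios scaling gave 2 higher and 4 lower members at 6 h, against 1 and 5.

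With IL-10 in HepG2, 4 members were called against NC at 3 h and 2 at 6 h. At 3 h FDFT1 (0.36), FDPS (0.18) and SREBF1 (0.20) were called higher (7.17% of all genes) and SQLE (-0.16) lower (11.9%). With its second row added FDFT1 was at 30.3, 26.5 and 27.1 FPKM with IL-10 against 28.45, 26.6 and 27.3 FPKM in NC, a log2 change of 0.02 that was not called. At 3 h no fatty acid gene was called by limma, where 3 of 11 had an unadjusted p under 0.05 and voom called 0. At 6 h FDPS (0.16) was called higher (1.88%) and ACLY (-0.17) lower (9.80%), and no transport and control gene was called (1 of 5 at an unadjusted p under 0.05, 0 by voom). Total-read scaling gave 3 higher and 2 lower members at 3 h, against 3 and 1, and median-of-ratios scaling gave 3 and 0. FDPS at 6 h lost its call whenever a library of either group was left out.

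Compared with IL-10 at 3 h in HepG2, TNF had 1 lower sterol synthesis gene, FDFT1 at -0.34 (6.06% of all genes), whose direction turned to 0.08 with its second row added, and higher LPIN1 (0.27), STARD4 (0.22) and SREBF2 (0.11; 10.0%). On the compared libraries alone 0 of the 6 calls held. At 6 h, 7 sterol synthesis genes were lower with TNF than with IL-10 (15.9%), led by HSD17B7 (-0.27), of which FDFT1 (-0.23) turned to 0.08 with its second row added, and LPIN1 was higher by 0.27 (18.9%). At 3 h, 5 sterol synthesis genes were lower with IL-6 than with IL-10 (10.9%), with FDPS at -0.32 and EBP, the sterol isomerase, at -0.31, and LPIN1 was higher by 0.20 (12.0%). Without the third IL-6 library FDPS (-0.24) and EBP (-0.21) were still called, while PMVK, ACAT2 and LPIN1 were not. FDFT1 (-0.46) was at -0.09 and not called with its second row added. No transport and control gene was called there by limma, where 3 of 5 had an unadjusted p under 0.05 and voom called 1, and the whole count of 8 fell to 1 on the compared libraries alone. At 6 h, IL-6 had FDPS lower by -0.13 (9.28%) and SREBF1 higher by 0.23 (14.4%). Total-read scaling gave 1 higher and 5 lower members for TNF at 3 h (3 and 3 in the main scaling), 1 and 15 for TNF at 6 h (2 and 13), and 1 and 8 for IL-6 at 6 h (1 and 5).

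Apart from ACACA, GPAM gave the largest falls against NC with TNF at 6 h and IL-6 among the fatty acid genes of HepG2. It was at 42.1, 43.1 and 46.05 FPKM with IL-6 at 6 h and at 44.1, 45.2 and 43.3 FPKM with TNF at 6 h, against 60.1, 60.1 and 60.4 FPKM with IL-10 at 6 h and 57.35, 55.8 and 58.2 FPKM in NC. All IL-6 and TNF libraries lay under all IL-10 and NC libraries. Against IL-10 the log2 difference was -0.45 with IL-6 (SE 0.05, adjusted p = 4.23e-07) and -0.44 with TNF (SE 0.05, adjusted p = 3.44e-07), by limma, and against NC it was -0.38 and -0.36.

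In HCT116 GPAM was lowest with Torin1 instead, at 9.30, 9.72 and 9.63 FPKM at 6 h and 9.23, 8.35 and 9.39 FPKM at 3 h, against 14.1, 14.3 and 13.6 FPKM in NC. LPIN1 was highest with Torin1 at 3 h of the Torin1 and NC groups in both lines. In HCT116 LPIN1 was at 1.67, 1.83 and 1.79 FPKM at 6 h and 3.03, 3.07 and 2.74 FPKM at 3 h, against 1.75, 1.52 and 1.845 FPKM in NC. In HepG2 it was at 4.58, 4.74 and 4.58 FPKM at 6 h and 5.12, 4.97 and 5.48 FPKM at 3 h, against 4.18, 3.73 and 3.85 FPKM in NC, so that in HepG2 Torin1 libraries of both times lay above every NC library.

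**Figure D4:**
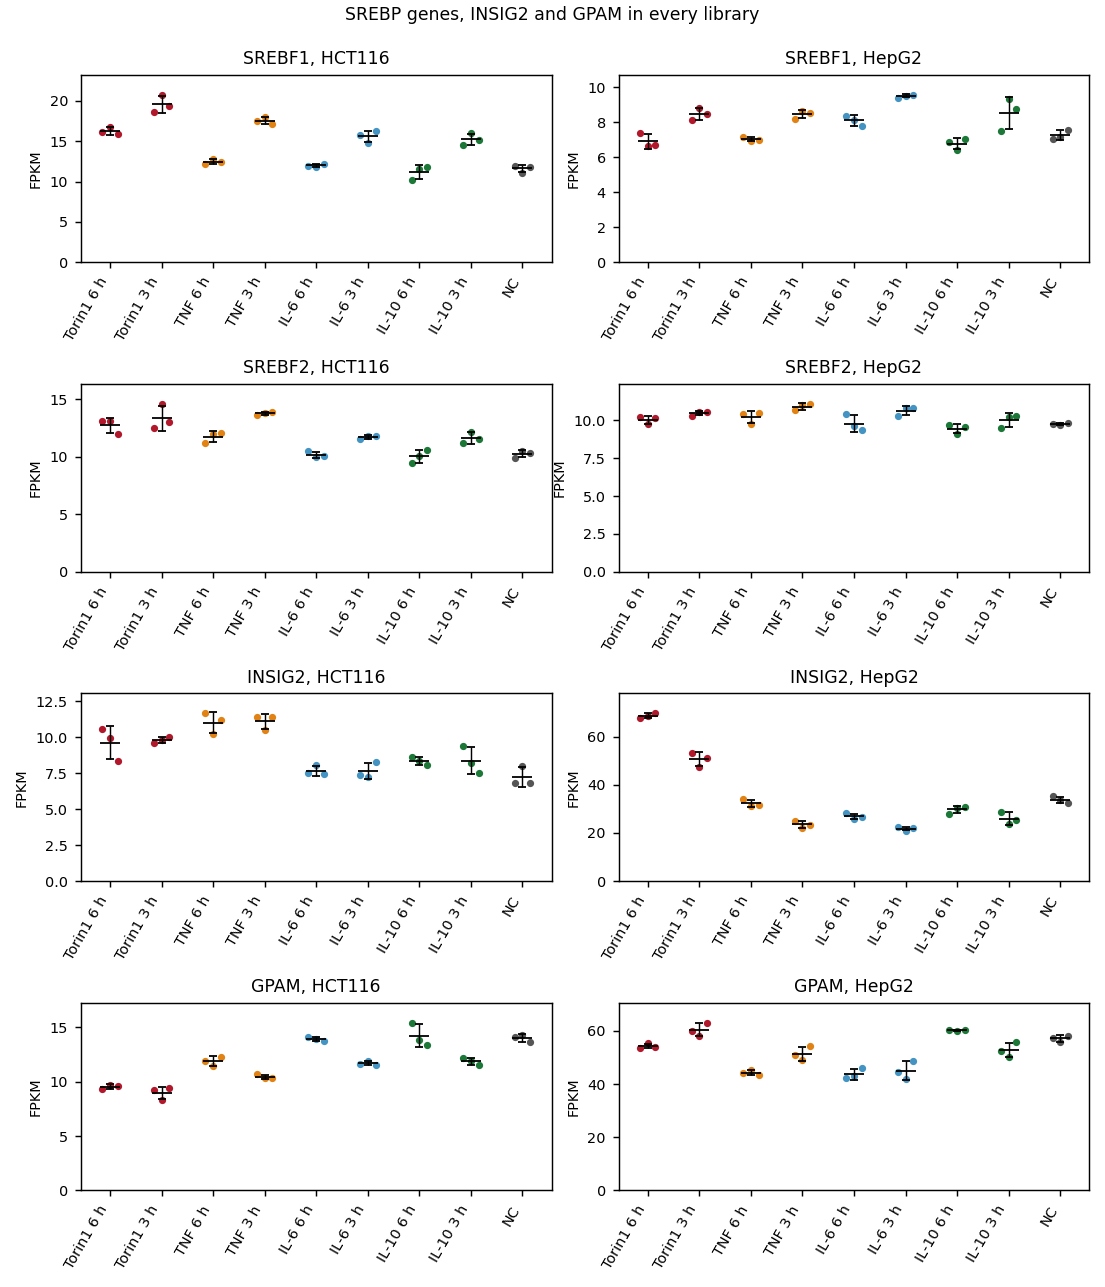
FPKM of SREBF1, SREBF2, INSIG2 and GPAM in every library of each group, HCT116 on the left and HepG2 on the right (points, libraries; bars, mean ± SD of 3). INSIG2 in HepG2 reaches 67.7 to 69.6 FPKM with Torin1 at 6 h, against 32.5 to 35.2 FPKM in NC, and GPAM in HCT116 is lowest with Torin1.

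SREBF1 and SREBF2 were higher with Torin1 than in NC at both times in HCT116. SREBF1 in HCT116 was at 16.2, 16.8 and 15.9 FPKM with Torin1 at 6 h and 18.7, 20.8 and 19.3 FPKM at 3 h, against 11.9, 11.1 and 11.8 FPKM in NC (log2 0.45, SE 0.05, adjusted p = 4.32e-08 at 6 h, and 0.71, SE 0.05, adjusted p = 6.98e-11 at 3 h, by limma). No Torin1 library overlapped with NC. SREBF2 was at 13.1, 13.1 and 12.0 FPKM at 6 h and 12.49, 14.6 and 13 FPKM at 3 h, against 9.92, 10.5 and 10.3 FPKM in NC. So SREBF1 and SREBF2 were higher than NC at 6 h in HCT116 while HMGCS1, MSMO1, STARD4 and INSIG1 were lower. From 3 h to 6 h of Torin1, SREBF1 was called lower too, by -0.25 in HCT116 and by -0.26 in HepG2.

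INSIG2, the paralogue of INSIG1, is no member and is given because the INSIG1 row was at or near 0 in HepG2 libraries. This choice was made after the values were seen. INSIG2 in HepG2 was at 67.7, 68.6 and 69.6 FPKM with Torin1 at 6 h and 53.4, 47.5 and 51.3 FPKM at 3 h, against 35.2, 33.55 and 32.5 FPKM in NC. It rose by 1.00 at 6 h (SE 0.06, adjusted p = 5.56e-12 by limma) and 0.57 at 3 h. In HepG2 it fell with TNF at 3 h (-0.50) and with IL-6 at 3 h (-0.61), where the 3 libraries were at 22.3, 21.0 and 22.1 FPKM. With IL-10 at 3 h it was also under every NC library, at 28.75, 23.7 and 25.2 FPKM, so the lower level was not particular to TNF and IL-6. In HCT116 it was at 10.55, 9.97 and 8.35 FPKM with Torin1 at 6 h against 6.83, 8.00 and 6.78 FPKM in NC (log2 0.37, adjusted p = 0.000284 by limma), and with TNF at 6 h it was higher than in NC by 0.55. The Torin1 change at 6 h differed between the lines by -0.63 (SE 0.10, adjusted p = 1.47e-06 by limma).

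Taken over each branch, the mean log2(FPKM + 1) level of the 18 sterol synthesis genes in HepG2 was 4.25 ± 0.04 with Torin1 at 6 h and 4.76 ± 0.15 at 3 h, against 4.83 ± 0.06 in NC (SD, n = 3 libraries each). For the 11 fatty acid genes tested in both lines it was 4.68 ± 0.02 at 6 h and 4.84 ± 0.02 at 3 h, against 4.85 ± 0.03 in NC. In HCT116 the sterol mean was 3.68 ± 0.06 at 6 h and 4.04 ± 0.08 at 3 h, against 3.81 ± 0.07 in NC, and the fatty acid mean was 3.85 ± 0.05 at 6 h and 4.06 ± 0.03 at 3 h, against 3.88 ± 0.04 in NC. The 6 h Torin1 libraries lay under all NC libraries for both means in HepG2, whereas in HCT116 both means overlapped between Torin1 at 6 h and NC. The sterol means moved with NSDHL, which ranged up to 11.2 FPKM in the third Torin1 library at 3 h in HepG2, against 0.278 and 0.322 FPKM in the other two. Without NSDHL, a choice made after seeing the data, the mean of the other 17 genes in HepG2 was 4.44 ± 0.02 with Torin1 at 6 h and 4.95 ± 0.06 at 3 h, against 5.08 ± 0.06 in NC, and Torin1 libraries of both times lay under every NC library. In HCT116 it was then 3.82 ± 0.02 at 6 h and 4.205 ± 0.020 at 3 h, against 3.933 ± 0.0062 in NC, with every 6 h library under and every 3 h library above the NC libraries. In HepG2 the branches differed in the share of genes that fell with Torin1 at 6 h, 17 of 18 sterol against 7 of 11 fatty acid genes. The 11 include ACACA, which was not called and passed the filter with 3 libraries. The branches also differed in the largest change, -1.42 against -0.53. These are descriptions, and the difference between branches was not tested. TNF at 3 h in HCT116 gave sterol and fatty acid means of 4.07 ± 0.06 and 3.96 ± 0.04.

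**Figure D5:**
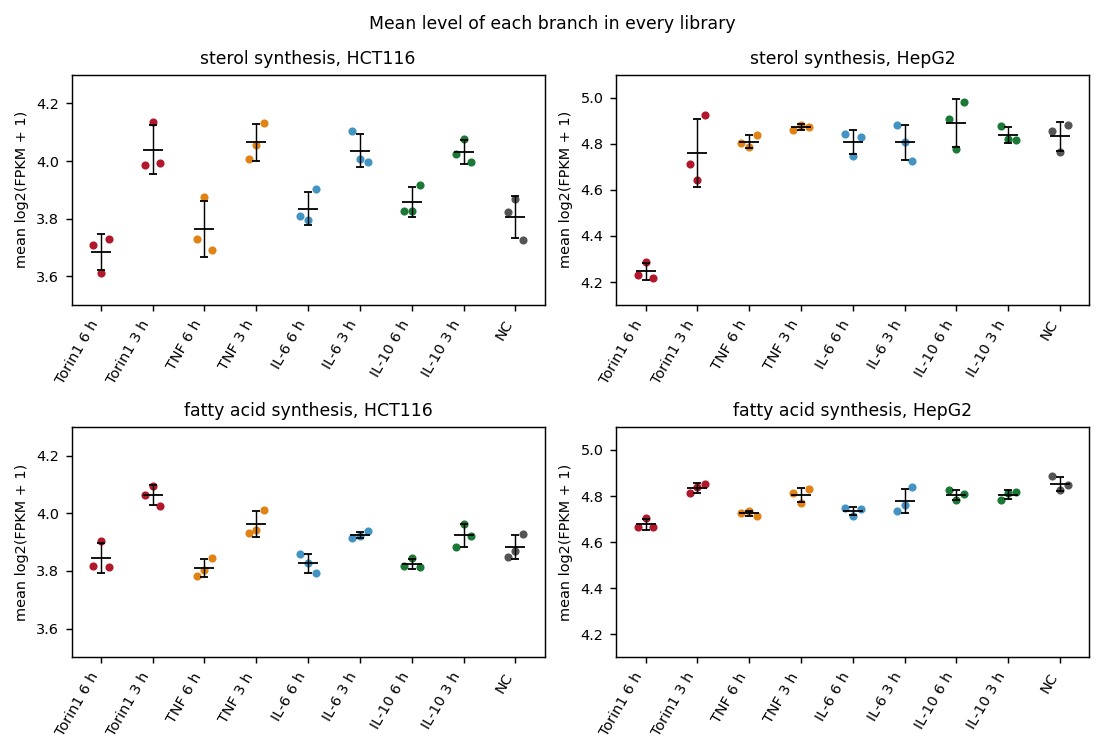
Mean log2(FPKM + 1) of the 18 sterol synthesis genes (top) and of the 11 fatty acid genes tested in both lines (bottom) in every library, HCT116 on the left and HepG2 on the right (points, libraries; bars, mean ± SD of 3); the axes do not start at 0 and differ between the lines. In HepG2 the sterol mean with Torin1 at 6 h lies between 4.22 and 4.29, against 4.76 to 4.88 in NC.

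IL-10 against NC was also compared between the lines. At 3 h, 9 sterol synthesis genes (15.6% of all genes), STARD4 and 4 fatty acid genes differed toward HCT116, and MID1IP1 (-0.25) differed the other way (8.78%). STARD4 differed by 1.16, from 1.10 in HCT116 and -0.06 in HepG2 (SE 0.10, adjusted p = 9.66e-11 by limma), IDI1 by 0.73 and HMGCS1 by 0.67. At 6 h IDI1 (0.34), HMGCS1 (0.29) and CYP51A1 (0.28) differed (15.4%), and 1.44% of all genes differed the other way. No transport and control or fatty acid gene was called at 6 h by limma, 1 in each branch had an unadjusted p under 0.05 and voom called 0. Total-read scaling gave 10 and 1 members at 3 h, against 14 and 1, and 2 and 1 at 6 h, against 3 and 0, with HMGCS1 at 6 h among the calls lost.

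A few members were measured less well. FDFT1, LSS, NSDHL and ACACA each appear in a second row of the table under the same symbol with a suffix, so their own rows may hold part of their signal and their values are uncertain. For FDFT1 the second row held more signal than the first, at 10.2, 9.97 and 10.1 FPKM against 1.41, 1.42 and 1.43 FPKM in HCT116 NC. NSDHL ranged from 0.236 to 5.65 FPKM among the 3 NC libraries of HCT116 and was called in no comparison. With the copies added together ACACA with Torin1 against IL-10 at 6 h in HepG2 was at -0.07, where its own row gave 0.36.

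Around these members, other genes of lipid handling moved in their own ways with Torin1. Of 9 genes of sterol trafficking and esterification, all tested in HCT116 and 7 in HepG2, 6 rose and 1 fell at 6 h against NC in HCT116, and 3 rose and 2 fell in HepG2. For this list and those that follow, the shares of all genes called at 6 h were 25.8% higher and 31.5% lower in HCT116, and 26.1% higher and 33.8% lower in HepG2, and several of the counts lie near them. NPC1, which exports sterol from lysosomes, was at 17.9, 18.85 and 19.25 FPKM with Torin1 at 6 h in HepG2 against 11.1, 10.9 and 11.1 FPKM in NC (log2 0.71, SE 0.04, adjusted p = 9.63e-13 by limma), and rose by 0.76 in HCT116. GRAMD1A, a sterol transporter at membrane contacts, rose by 1.48 in HepG2. Of 9 genes near the sterol and isoprenoid pathways, 5 fell in HepG2, led by ERG28 (-0.48), and 5 fell and 1 rose in HCT116.

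Of 10 genes of SREBP processing, 9 were tested in each line, with 5 called higher and 3 lower at 6 h of Torin1 in both. UBE2G2, an enzyme of protein degradation at the endoplasmic reticulum, fell by 0.43 in HCT116 and 0.46 in HepG2. Of 20 other fatty acid and glycerolipid genes, 16 were tested, with 4 higher and 5 lower in HCT116 and 6 higher and 4 lower in HepG2. ACSL3, which activates long fatty acids, was at 194, 198 and 206 FPKM with Torin1 at 6 h in HepG2 against 102.7, 98.7 and 99.1 FPKM in NC (log2 0.98, SE 0.04, adjusted p = 2.42e-14 by limma). Of 10 fatty acid oxidation genes, 8 were tested, with 4 higher and 3 lower called in HepG2, where CPT1A, which admits fatty acids to mitochondria, rose by 0.97. In HCT116, 3 of 7 were called higher and 2 lower without PDK4, which restrains pyruvate oxidation and passed the filter there through Torin1 libraries alone. PDK4 was at 1.87, 2.04 and 1.88 FPKM with Torin1 at 6 h against 0.362, 0.434 and 0.359 FPKM in NC. Of 6 liver X receptor and efflux genes, ABCA1, a sterol exporter, was the gene called in HepG2, at 0.20, and NR1H2 the gene called in HCT116, at 0.35.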

How the data were processed

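The labels' protocols state poly(A) RNA libraries of HCT116 and HepG2 cells and paired-end reads from an MGISEQ-2000RS instrument. The authors deposited 1 table of FPKM values for 50037 genes in 54 libraries, and the submitters' processing notes name FastQC, HISAT2, StringTie, DESeq2 and the build GRCh38 without roles. Another 48 columns of that table were not used. Since all 36451 genes above 0 were whole multiples of a per-read step (100%, within 0.01 reads, or 0.05 reads for high genes), reads were recovered for depth and for the voom alternative, and intervals from them would cover counting error only.

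Genes with at least 1 FPKM in 3 libraries of a fit were tested on log2(FPKM + 1), a pseudocount of 1, with limma 3.58.1 (lmFit, contrasts.fit and eBayes with a trend) in R 4.3.3. The fit of a line used its 27 libraries in 9 groups, with 11395 genes in HCT116 and 11280 in HepG2. A fit of all libraries gave the differences between lines (9683 genes) and the NC comparison (12992 genes). Calls had a Benjamini-Hochberg adjusted p under 0.05, and the fit was tested on simulated data. Members and lists were chosen with earlier results of these data known. All 36 members are named, with full statistics for at most 6 called members per branch and comparison by size of change. Of the other lists at most 2 called genes per comparison are named. Alternatives were a pseudocount of 0.1, no filter, other scalings, a replicate block, the compared libraries alone, voom, each library left out and, chosen after seeing the data, second rows added and branch means without NSDHL. Genes that passed the filter through the higher treatment or line alone were left out of counts where named.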

Additional observations from a re-analysis of the deposited data

Results flagged for a closer look

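These results were flagged because the change against NC differed between HCT116 and HepG2 in a direct test by limma with Benjamini-Hochberg adjustment over 9683 genes; values are HCT116 minus HepG2 on the log2 scale. With 3 libraries per group, single libraries standing far from their group were not tested.

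With Torin1 at 3 h, 28 of 34 members differed, where 20.4% of all genes were higher in this difference and 19.5% lower. The differences were 0.79 for HMGCS1, 0.71 for MSMO1, 0.65 for IDI1, 0.92 for STARD4, 0.51 for SREBF1, 0.26 for SREBF2, 0.52 for SCD and 0.50 for FADS1, and -0.66 for GPAM. With Torin1 at 6 h, 28 of 34 differed, where 26.4% of all genes were higher and 23.7% lower. The differences were 1.04 for HMGCS1, 1.03 for MSMO1, 0.88 for MVK, 0.67 for STARD4, 0.52 for SREBF1, 0.25 for SREBF2, 0.62 for FADS2, 0.46 for FADS1 and 0.44 for FASN.

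With IL-10 at 3 h, 15 of 34 members differed (15.6% of all genes were higher and 8.78% lower), among them IDI1 by 0.73, HMGCS1 by 0.67, MSMO1 by 0.52, STARD4 by 1.16, SCD by 0.35, FADS1 by 0.33 and ELOVL6 by 0.26. With IL-10 at 6 h, 3 of 34 differed, a smaller share than that of all genes (15.4% higher and 1.44% lower): IDI1 by 0.34, HMGCS1 by 0.29 and CYP51A1 by 0.28.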

How the results depend on the processing

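Counts of called members moved by over 1.5 times in several comparisons, most but not all of them with few calls. Without the filter they were 4 in place of 7 for IL-6 at 6 h against NC in HCT116, 6 in place of 10 for IL-6 at 3 h against NC in HepG2, and 1 in place of 2 for IL-10 at 6 h against NC in HepG2. On the compared libraries alone they were 4 in place of 7 for IL-6 at 6 h against NC and 10 in place of 16 for Torin1 against IL-10 at 3 h in HCT116. In HepG2 they were then 4 in place of 10 for IL-6 at 3 h, 2 in place of 4 for IL-10 at 3 h and 4 in place of 2 for IL-10 at 6 h against NC, and 0 in place of 6 for TNF and 1 in place of 8 for IL-6 against IL-10 at 3 h. The line difference of IL-10 at 6 h had 5 in place of 3. With a replicate block, IL-10 at 6 h against NC in HepG2 had 4 in place of 2. The cause of these moves was not tested. Over all genes, deviations of same-numbered libraries correlated above 0.1 for all 3 numbers in 0 of 30 comparisons checked, and no pairing was used. This criterion cannot show that the samples were unpaired. NFKBIA in HepG2 at 3 h was highest in replicate 2 and lowest in replicate 3 with IL-10, IL-6, TNF and Torin1.

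Leaving out single libraries gave 5 to 10 calls for IL-10 at 6 h against NC in HCT116 (main 9; 5 without IL-10 replicate 1) and 4 to 6 for IL-6 at 6 h (main 7; 4 without IL-6 replicate 1 or 2 or NC replicate 2). In HepG2 against NC it gave 1 to 7 for IL-10 at 3 h (main 4; 7 without IL-10 replicate 1 and 1 without replicate 2), 1 for IL-10 at 6 h (main 2; each of 6 libraries), 6 to 9 for IL-6 at 3 h (main 10; 6 without NC replicate 1 or 3) and 3 to 6 for IL-6 at 6 h (main 6; 3 without IL-6 replicate 2). In HepG2 against IL-10 it gave 3 to 8 for TNF at 3 h (main 6; 3 without IL-10 replicate 2 or 3), 5 to 9 for IL-6 at 3 h (main 8; 5 without IL-6 replicate 3), 8 to 14 for TNF at 6 h (main 15; 9 without IL-10 replicate 3, 8 without TNF replicate 3) and 3 to 5 for IL-6 at 6 h (main 6; 3 without IL-10 replicate 3 or IL-6 replicate 2).

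Signs turned in 4 cases. ACLY in HCT116 NC against HepG2 NC was at 0.0397 with total-read scaling (main -0.19). With second rows added, ACACA with Torin1 against IL-10 at 6 h in HepG2 was at -0.0693 (main 0.36), and FDFT1 with TNF against IL-10 in HepG2 was at 0.0762 at 3 h (main -0.34) and 0.0804 at 6 h (main -0.23), where the second row's signal enters the value. Counts for Torin1 against NC stayed within 1.5 times of the main count in both lines under the alternatives run. NSDHL varied between replicates from 0.236 to 5.65 FPKM in HCT116 NC, while FDFT1 at a like level stayed at 1.41 to 1.43 FPKM, and the cause was not tested.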
